A study of Mus musculus with 8 samples.

Results

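The 10 genes described here are Trh, Dppa2, Dppa3, Dppa4, Dppa5a, Prdm14, Nr0b1, Tcl1, Utf1 and Sall4, which are known for expression in pluripotent or germline cells and lie outside the core pluripotency factors. They were chosen by name from a table of 17597 genes and 1097 transposable element subfamilies, and all 10 were found in it. The choice was made with the authors' own comparison of the groups in view, and that comparison is not used here. The data are total RNA-seq from XX mouse embryonic stem (mES) cells of a Cast x 129S background. In the mES cells, the METTL3 protein carries the FKBP12 F36V degron tag, through which the small molecule dTAG-13 sends it for destruction. METTL3 is the enzyme that deposits the RNA modification m6A (N6-methyladenosine). Of the 8 libraries, 4 came from cells given dTAG-13 for 26 h and 4 from untreated cells, and both groups were made of 2 replicates of clone C3 and 2 of clone H5, so each line is 1 clone. The tag and a TetOn promoter at the endogenous Xist gene were shared by both groups, no doxycycline was given, and the cells were grown in serum and LIF on fibroblast feeders. The sample labels place the TetOn promoter on the 129S allele, whereas the study's text places METTL3-tagged lines in a background with it on the Cast X chromosome.

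The level given for each gene is the mean count, the authors' mean over all libraries of reads scaled for library size. It pools treated and untreated cells, so it describes how abundant each RNA was across the experiment and says nothing about the effect of dTAG-13. No value per library was analysed here, and therefore no spread, test or comparison between the groups could be given. In RNA from a whole culture, fewer cells of a type and less RNA per cell cannot be told apart. Mean counts of all genes added up to 14573411 reads. Because long transcripts collect more reads, levels of different genes were compared as the mean count per kb of the longest annotated transcript.

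Accessory markers of pluripotency do different kinds of work. DPPA2 and DPPA4 bind chromatin together and prime genes of the early embryo, DPPA3 (also known as Stella) limits maintenance of DNA methylation, and PRDM14 and SALL4 are DNA-binding regulators shared by mES cells and germ cell precursors. NR0B1 (also known as DAX1) is an orphan nuclear receptor, UTF1 is a chromatin-associated protein, TCL1 is a coactivator of AKT kinases and DPPA5A is an RNA-binding protein with a KH domain. Trh differs from the others in that it encodes a secreted neuropeptide precursor, which in the hypothalamus yields thyrotropin-releasing hormone (TRH).

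All 10 genes were above the median gene. Their mean counts ran from 712 to 9992, a 14.0-fold range, against a median of 170 over all genes. Of the 10, 5 lay in the top 10% of genes, where the limit was a mean count of 2029. The 10 genes held 0.201% of all gene reads, and Dppa5a and Trh alone made up 50.4% of that. Per kb, the range widened to 58.1-fold, with a median of 1038 for the set and 52.7 over all 17382 genes with a length, and 9 of 10 were in the top 10%. These positions are a description of genes chosen as stem cell markers, and were not tested.

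**Figure D1:**
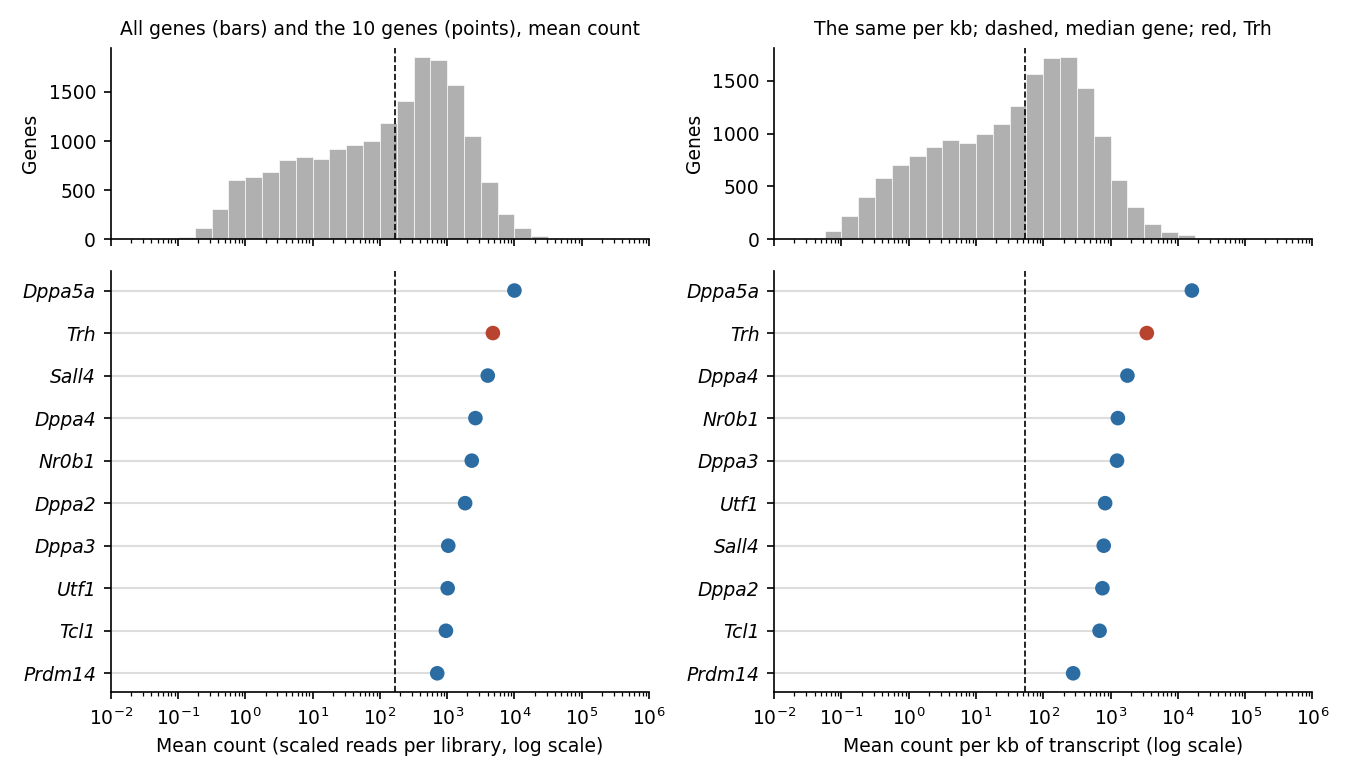
Level of the 10 genes in mES cells, as the mean count (left) and the mean count per kb of transcript (right), both on log axes; bars show how many of all genes fall at each level and the dashed lines the median gene. Every point lies to the right of the median, Dppa5a is first on both scales and Prdm14 last, and Sall4 moves from position 3 to position 7 once length is taken into account.

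Trh (chromosome 6, 92242061 to 92244650, minus strand, GRCm38) had a mean count of 4783, the second highest of the set and rank 550 of all genes. Its transcript is 1384 bases long in 3 exons, and its level was 3456 per kb, at the 98.7th percentile of genes. That was 1.29 times the level per kb of Nanog (2683) and 39.4% of that of Pou5f1 (8762), which encodes OCT4. By mean count the order was the reverse, with Nanog (5933) above Trh. A neuropeptide precursor was thus among the more abundant RNAs of these cultures. With no replicate values, the distance between Trh and Nanog cannot be set against an error.

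The genes that act on the TRH precursor and the hormone were far lower than Trh. Prohormone convertases cut the precursor, carboxypeptidases trim it, glutaminyl cyclase closes its first residue and PAM amidates its end. Of 13 genes listed for processing, reception and breakdown, 12 were in the table. All 12 had a lower level per kb than Prdm14, the lowest of the 10 markers, as did 77.7% of all genes. By mean count, 11 of the 12 were below Prdm14, and Prep was above it. The most abundant were Prep (mean count 1604), a cytosolic peptidase, Cpd (595), Pgpep1 (239) and Pam (173). Trh stood 81.8 times above Pam, 118 times above Cpe and 339 times above Pcsk1 in level per kb. The other listed convertase genes, Furin and Pcsk2, had mean counts of 168 and 14.8. Those of the glutaminyl cyclase genes Qpctl and Qpct were 98.9 and 43.6. The receptor gene Trhr had a mean count of 0.481 and Trhde, which encodes the enzyme that degrades TRH outside cells, of 1.24, so both were near the bottom of the table.

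Dppa5a (chromosome 9, 78367052 to 78368177) was the most abundant member, with a mean count of 9992 and rank 165 of all genes. On its short transcript of 619 bases this came to 16142 per kb, which was 4.67 times the level of Trh and 1.84 times that of Pou5f1. Only 21 genes stood above it per kb, its rank being 22. Its relatives with a KH domain were lower, Ooep by 20.0 times and Khdc3 by 33.2 times per kb. Of its reads, some may match elsewhere: 86 of 539 stretches of 81 bases in the transcript, the length of a read, also occur in 5 other annotated genes, 4 of them pseudogenes. Only uniquely placed read pairs were kept, and the effect of this on the level was not tested.

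Dppa4 and Dppa2 are neighbors on chromosome 16, at 48283733 to 48294237 and 48303908 to 48319723, both on the plus strand with 9670 bases and no other annotated gene between them. Dppa4 had a mean count of 2631 and Dppa2 of 1850.05. Per kb, Dppa4 (1779) stood 2.35 times above Dppa2 (756), although the proteins are known to act as a pair. By coding length the levels were closer, at 2963 and 2049. Both transcripts also share sequence with pseudogenes, over 21.2% of the 81-base stretches of Dppa4 and 25.3% of those of Dppa2, and the effect on the counts was not tested.

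Genes that DPPA2 and DPPA4 are known to prime were at low levels in these cells. Of 14 listed genes of the early embryo state, 12 were in the table. None of these exceeded a mean count of 100, while 43.9% of all genes were under 100.9. The highest were Zscan4f (55.2), Zscan4d (26.1), Zscan4c (24.7) and Zscan4a (21.9), while Dux, the factor at the head of this program, had 4.63. The Zscan4 genes are near-identical copies, so their counts from uniquely placed reads are uncertain. Dux could not be matched to a single annotated gene, so it has no level per kb, and its count is uncertain as well.

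The mean count of Dppa3 (chromosome 6, 122626410 to 122630272) was 1038, but as its transcript has only 833 bases, it rose in the order to position 5 with 1247 per kb. Uhrf1, the methylation maintenance factor that DPPA3 restrains, stood at 1631 per kb. Dppa3 shares chromosome 6 with Trh at a distance of 30381759 bases, with 172 protein-coding genes between them.

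Prdm14 (chromosome 1, 13113457 to 13127163) was the lowest member on both scales, with a mean count of 712 and 278 per kb, at the 77.7th percentile of genes. Its corepressor Cbfa2t2 had 197 per kb. Among 10 other Prdm genes listed, the highest was Prdm4 with a mean count of 1251 (316 per kb), and Prdm1, a regulator of germ cell fate, had 640 (121 per kb). Prdm14 was therefore exceeded per kb by Prdm4 alone among these.

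The mean count of Sall4 (chromosome 2, 168748332 to 168767943) was 4013, at position 3 in the set, yet its transcript of 5073 bases is the longest, and per kb it fell to position 7 (791). The 4 Sall genes were spread widely. Per kb, Sall4 was 2.63 times above Sall1 and 61.3 times above Sall3, and Sall2 stood at 35.9. Over 5.72% of its exonic bases it overlaps an antisense transcript, Gm14261, and whether the counting used strand is uncertain. Of the chromatin remodelling genes whose products join SALL4, Chd4 had a mean count of 9115 and Rbbp4 of 4717. Per kb, Chd4 (1361), Hdac1 (1346), Rbbp4 (1012), Mbd3 (957) and Hdac2 (911) stood above Sall4, and Mta1 (373) below it.

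Nr0b1 (chromosome X, 86191764 to 86195947) was at position 4 per kb, with a mean count of 2321 and 1284 per kb. Nr5a2, which encodes a nuclear receptor that NR0B1 binds, stood at 214 per kb, while its paralog Nr0b2 had a mean count of only 0.410. For Utf1 (chromosome 7, 139943789 to 139945112) the mean count was 1019 and the level per kb 830.1. For Tcl1 (chromosome 12, 105216750 to 105222793) they were 959.5 and 686, beside 593 per kb for its partner kinase gene Akt1. The related Tcl1b2 and Tcl1b4 had mean counts of 0.458 and 0.212, and the paralog Mtcp1 of 137.

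Since each level is a single value, no neighbors in the order can be said to differ. Utf1, Sall4, Dppa2 and Tcl1 lie between 686 and 830.1 per kb, and Nr0b1 and Dppa3 at 1284 and 1247. With the union of all exons as the length, Dppa2 (756) passed Sall4 (725). Coding length kept Dppa5a, Trh and Dppa4 as the first 3 and Prdm14 as the last, while Nr0b1 fell from position 4 to 7 and Utf1 from 6 to 9.

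The markers of the labelled cell type were present. All 14 core and naive pluripotency factors were above the median gene, led by Pou5f1 (mean count 11934), Zfp42 (9104), Tdgf1 (8992) and Esrrb (8081), with a median of 1762 per kb. Markers of feeder fibroblasts were mostly low. Of 16, 13 had a mean count under 100, while 43.9% of all genes were under 100.9. Only 1 of the 16 was above the median gene (170). The highest were Col5a1 (226), Fbln2 (127), Thy1 (116) and Loxl1 (72.7), and the defining collagen gene Col1a1 had 19.8. Per kb, S100a4 (99.7) and Thy1 (66.8) were above the median gene (52.7). Of 16 markers of differentiated lineages, 5 were above the median gene. By mean count, 14 of 16 were below Prdm14, the lowest of the 10 genes, as were 73.4% of all genes. The exceptions were Dnmt3b (4692) and Otx2 (1230), which mES cells also express, followed by Nes (444) and Eomes (308).

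Several of the 10 genes are also germline genes, and they were compared with a list of other germline genes, which holds regulators of germ cell fate and meiotic genes. Of 16 listed, 15 were in the table, and 14 had a level per kb below that of Prdm14, as did 77.7% of all genes. The median of the list, 101 per kb, was above the median gene (52.7). The highest were Kit (mean count 947), Tfap2c (922), Prdm1 (640) and Ddx4 (431), of which Tfap2c reached 309 per kb. The meiotic genes Sycp3 and Stra8 had mean counts of 122 and 11.2.

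**Figure D2:**
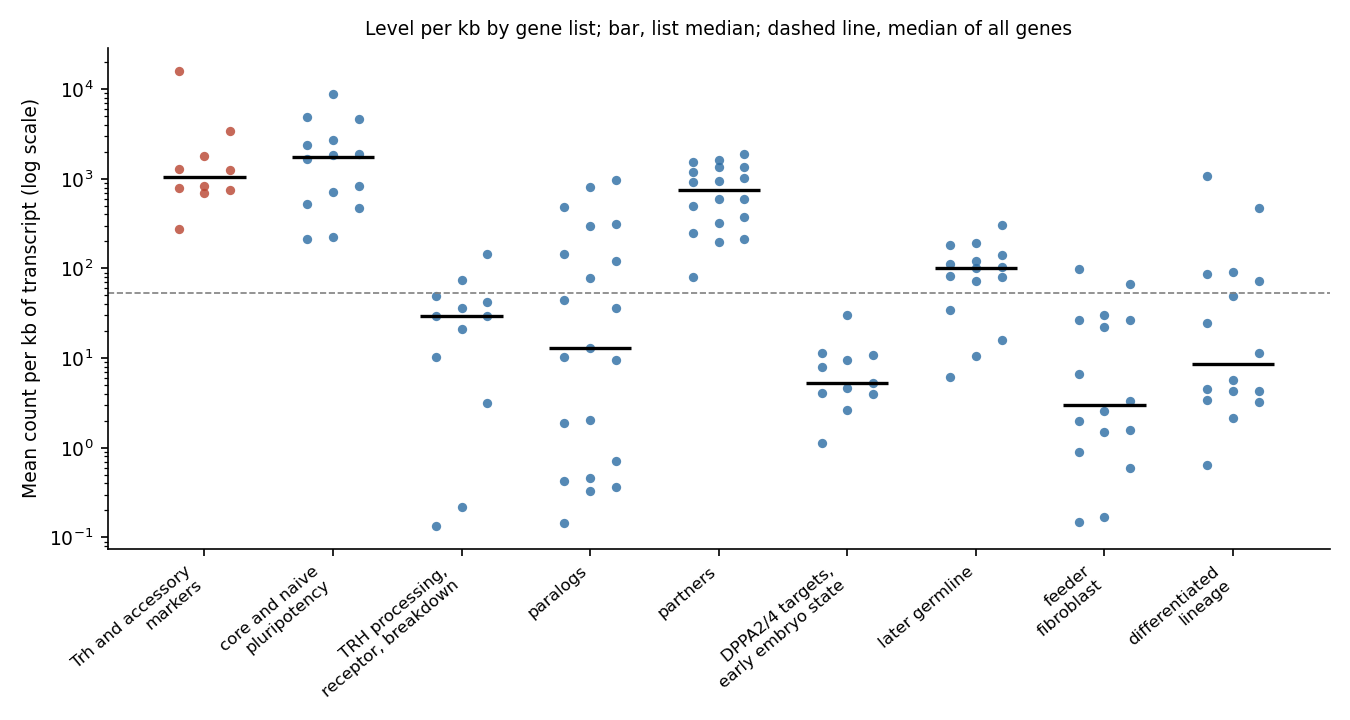
Mean count per kb of transcript (log axis) for each gene with a length in 9 lists. Points are genes, bars the list medians and the dashed line the median of all genes. The 10 markers (red, median 1038) lie near the core and naive factors (1762) and the partners (754). They lie above the other germline genes (labelled later germline, 101) and far above feeder markers (2.96).

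Because the study turns on m6A, the transcripts were searched for GGACT, a core of the sequence that METTL3 prefers, in which the adenosine is the base that can be methylated. GGACT was found in 5 of the 10 transcripts, against 93.5% of 13030 protein-coding genes whose mean count was 10 or more. The 10 transcripts were also shorter, with a median of 1439 bases against 3427 for these genes. Per kb, the median was 0.195 for the set and 1.04 for these genes, and of the 10 only Utf1 (1.63) was above the latter. Among genes of 1000 to 1500 bases, 79.0% had a match, and of the 4 members in that class, Utf1 and Tcl1 did. A match says nothing about whether the site was methylated.

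Trh, Dppa3, Dppa4, Dppa5a and Nr0b1 had no GGACT. Sall4 had 5, the most of the set, of which 4 lie in its long second exon of 2367 bases and 1 in the 3' UTR, and Utf1 had 2, the second of them 11 bases before the first base of the stop codon. These sites are shown with 10 bases on each side of the adenosine, GGACT in capitals and positions counted from the transcript start.
Sall4, exon 2, base 336: gcctcagaGGACTccataccg
Sall4, exon 2, base 501: ccttcagaGGACTtttccaga
Sall4, exon 2, base 585: agctcgggGGACTtgaagaag
Sall4, exon 2, base 606: ctgggcacGGACTccatcctg
Sall4, exon 4, base 3800: aacagttgGGACTcattggac
Utf1, exon 1, base 252: gtgtccccGGACTcggcgcag
Utf1, exon 2, base 1092: atccttggGGACTtgcgccaa
Dppa2 and Tcl1 had 1 match each, in the 5' UTR, and Prdm14 had 1 in the 3' UTR.

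The shorter core GGAC was found in 9 of 10 transcripts, the exception being Dppa5a. Among protein-coding genes with a mean count of 10 or more, 95.9% of those under 1000 bases had a match. In every longer class the share was at least 99.3%. Trh had 4 matches, shown the same way with GGAC in capitals. Other variants of GGACT were not searched. In 3 of them a C follows and in the other an A.
Trh, exon 2, base 120: agatgcagGGACcttggctga
Trh, exon 2, base 302: gtgcgaggGGACcttggtgct
Trh, exon 3, base 491: gatgagggGGACagtgactgg
Trh, exon 3, base 1165: ctcctaagGGACctcctcaga
The first 3 lie in the coding sequence and the last in the 3' UTR, 285 bases past the first base of the stop codon.

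**Figure D3:**
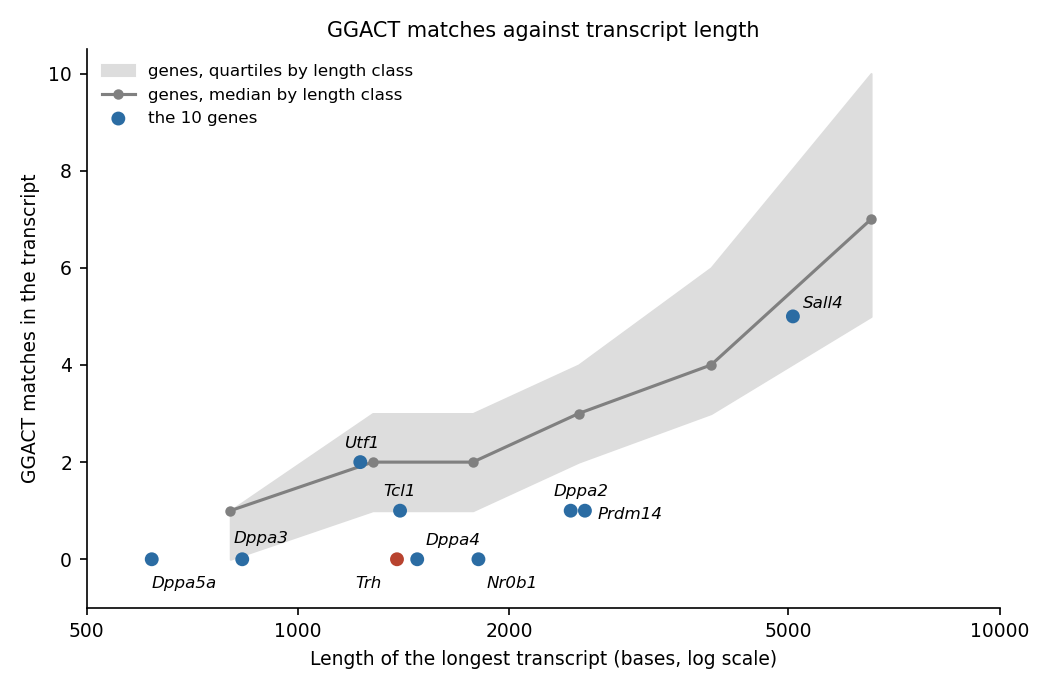
GGACT matches in the longest transcript against its length (log axis) for the 10 genes (points), with the median (line) and quartiles (band) of protein-coding genes in 6 length classes. Against the quartiles of its own length class, Utf1 lies inside, Sall4, Tcl1, Dppa3 and Dppa5a lie on the lower quartile, and Trh, Dppa4, Nr0b1, Dppa2 and Prdm14 lie below it.

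Promoters were read for 4 of the 10 genes, Trh, Nr0b1, Tcl1 and Utf1, over 250 bases before the start site and 50 after it (RefSeq, GRCm38.p6). The observed over expected CpG ratio was 0.876 for Trh, 0.615 for Utf1, 0.551 for Nr0b1 and 0.462 for Tcl1, and the median of 32851 promoters was 0.384. Trh therefore has the most CpG-rich promoter of the 4, with 28 CpG in 300 bases, while Tcl1 has 11. The promoters of Trh and Tcl1, at both ends of this range, and that of Nr0b1 are shown 5′ to 3′, with matches to the motifs searched in capitals.
Trh promoter, chr6:92244601-92244900, minus strand: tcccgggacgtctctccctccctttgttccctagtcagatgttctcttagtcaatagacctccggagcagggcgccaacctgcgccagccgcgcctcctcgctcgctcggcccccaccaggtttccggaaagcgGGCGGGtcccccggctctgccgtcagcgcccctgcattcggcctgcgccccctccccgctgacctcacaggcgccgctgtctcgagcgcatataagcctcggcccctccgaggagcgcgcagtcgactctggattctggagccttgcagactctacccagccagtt
Tcl1 promoter, chr12:105222688-105222987, minus strand: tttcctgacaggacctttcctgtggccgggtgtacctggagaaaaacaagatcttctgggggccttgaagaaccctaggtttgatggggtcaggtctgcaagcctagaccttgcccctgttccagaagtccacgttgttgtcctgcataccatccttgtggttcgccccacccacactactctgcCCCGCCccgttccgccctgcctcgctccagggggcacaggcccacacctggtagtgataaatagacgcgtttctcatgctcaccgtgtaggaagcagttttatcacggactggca
Nr0b1 promoter, chrX:86191525-86191824, plus strand: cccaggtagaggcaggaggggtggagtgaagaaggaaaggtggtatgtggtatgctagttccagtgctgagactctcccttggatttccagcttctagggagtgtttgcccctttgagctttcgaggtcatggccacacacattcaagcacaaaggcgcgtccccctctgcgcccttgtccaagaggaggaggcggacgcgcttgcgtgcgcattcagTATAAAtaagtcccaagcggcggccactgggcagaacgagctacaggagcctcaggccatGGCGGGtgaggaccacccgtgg
The GC-box GGCGGG, searched on both strands, was present in 4 of 4, and in 35.3% of all promoters. Its first base lies 116 bases before the start in Trh, 65 in Tcl1 and 137 in Utf1, but 28 after it in Nr0b1. TATAAA was found in Nr0b1 alone, 32 bases before the start, and in 13.6% of all promoters. None of the 4 held CACGTG (7.15% of all promoters), TCACGTGA (0.974%), which contains it, TGACGTCA (1.79%), ATGCAAAT (1.74%), TCAAGGTCA (0.423%) or GGTCTCTAA (0.256%).

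**Figure D4:**
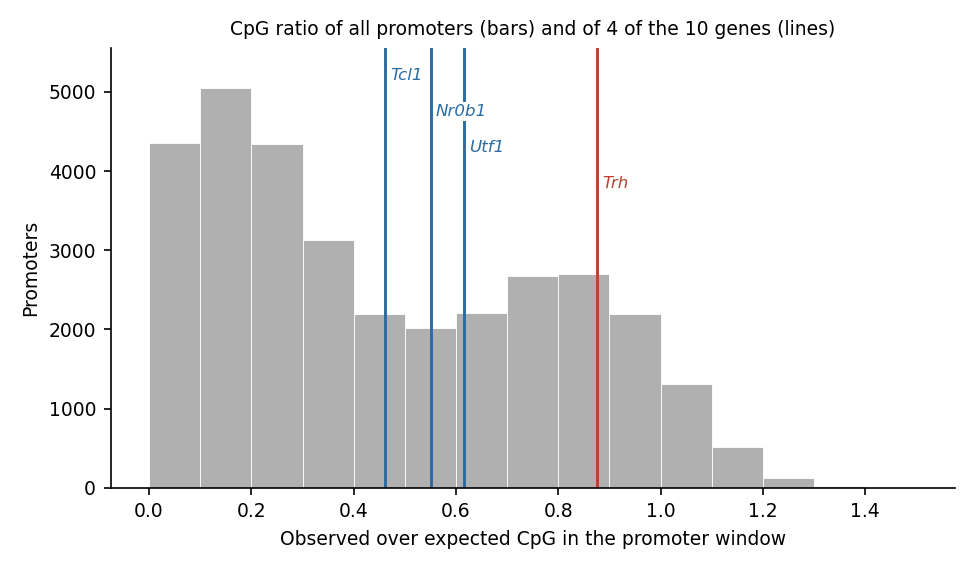
Observed over expected CpG in 32851 promoter windows of 300 bases (bars) and in the windows of Tcl1, Nr0b1, Utf1 and Trh (lines). Trh, at 0.876, lies in the upper of the 2 humps of the distribution, and the other 3 lie between the humps.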

How the data were processed

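Total RNA-seq of 8 libraries was analysed from 1 table. According to the paper's methods, rRNA reads were removed with bowtie2, pairs were aligned with STAR to N-masked mm10 and only unique alignments were kept. Duplicates were removed with Picard, and genes and transposable elements were counted by the authors with TEtranscripts at default parameters. The signal column deposited by the authors is the mean over all libraries of counts divided by size factors, pooled over both groups, so the depth of single libraries is unknown. The other 5 columns hold the authors' own comparison (fold change, its error, statistic, p and adjusted p) and were not used. The labels describe total RNA, while their extraction text describes chromatin RNA. According to the methods the library kit was stranded, and the name of the table carries the word reverse, which points to counting by strand. The methods give only default parameters for the counting, so use of strand remains uncertain.

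Lengths, exons and transcript sites come from GENCODE vM21. Symbols were matched to GENCODE vM21 (GRCm38, the build of mm10): 16660 directly and 722 through a synonym, so 98.8% of genes had a length. The authors' annotation may differ from it. Percentiles give the share of genes with a lower value. Up to 4 genes with the highest mean count were named per list; receptors, enzymes, paralogs, partners and single markers beyond these were chosen after their values were seen. The members and lists were chosen with earlier results of these data known. Of the names not found, Lrh1 and Brg1 are aliases of Nr5a2 and Smarca4, and Tex19.1 (mean count 1675) stood among the paralogs without being one. Python 3.11.15 and pandas 2.3.3 were used, and the counting functions were tested on simulated data. The test planned for counts per library could not be run without them, and protein sequences were not analysed here.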

Additional observations from a re-analysis of the deposited data

How the results depend on the processing

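No paired analysis was possible because the mean pools all libraries, and for the same reason no replicate could be left out and no other normalization tried. Of the 10 genes, 5 were in the top 10% by mean count, also with transposable elements included, 4 when genes under a mean count of 10 were left out, and 9 per kb. Their median percentile was 90.17, and it was 90.23 among all features and 87.3 without the genes under a mean count of 10. Their share of reads, 0.201%, was 0.180% with transposable elements in the total and 0.209% without the 10 most abundant genes. Coding length in place of transcript length moved the level per kb by over 1.5 times for 8 of 10 genes, and the union of exons for 0 of 10. Promoter CpG ratios from the bases before the start alone stayed within that limit for 4 of 4. GGAC in place of GGACT was added after seeing the data.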

Other observations

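None of the 10 genes has more exons than the median (8) of the 13030 protein-coding genes with a mean count of 10 or more, and Nr0b1 and Utf1 have 2. Per kb of transcript the order turns, with a median of 2.99 exons for the set and 2.70 for those genes, and 6 of 10 lie above the latter. In Trh, 77.0% of the transcript lies in 1 exon, the last, of 1065 bases, and in Tcl1 the longest exon holds 68.1%. The longest internal exon ranged from 171 bases in Tcl1 to 2367 in Sall4, with a median of 228 over the 11436 of those genes that have an internal exon. Of the 10 GGACT matches of the set, 6 lie in the longest exon of their transcript, and the longest exons of the 5 transcripts with a match hold 47.9% of their bases.

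Among the genes whose products work with the 10 markers, 9 of 18 in the table were in the top 10% by mean count, the highest being Smarca5 (9534), Chd4 (9115), Esrrb (8081) and Uhrf1 (5850). Utf1 had the most GC-rich transcript of the set, 63.5%, at the 99.2nd percentile of genes, and Dppa2 the least, 43.6%.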
